A study of Caenorhabditis elegans with 6 samples.

Results

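Synaptic vesicle and transmitter genes were examined in worms of Caenorhabditis elegans as a set of 10 named genes, through every acetylation peak that the deposited tables assign to them. Of the 10 genes, 9 had at least 1 peak of histone H3 acetylated at lysine 18 (H3K18ac) and 8 had at least 1 peak of H3 acetylated at lysine 27 (H3K27ac). These made up 18 of 17207 nuclear H3K18ac peaks and 13 of 17763 nuclear H3K27ac peaks. The vesicle genes were snb-1, ric-4, unc-13, rab-3 and sng-1, the transmitter genes unc-17, unc-25 and unc-47, and the peptide processing genes egl-3 and egl-21. The GABA transporter gene unc-47 had no peak in either mark, and rab-3 had none for H3K27ac.

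The marks were measured by chromatin immunoprecipitation and sequencing in whole worms of the wild-type strain N2, grown at 20 °C and collected as L4 larvae or young adults. Per the series design, which the sample labels do not repeat, the worms carried a reporter in which hsp-6 is joined to GFP. From the egg on, they ate E. coli HT115 that carried either an empty RNAi vector (ev) or, at 50%, the cco-1 RNAi clone, which targets a subunit of cytochrome c oxidase. Each mark had 1 library per condition, so the differences below have no replicate check and no test, and every interval covers counting error alone.

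At a chemical synapse, transmitter is loaded into vesicles by a vesicular transporter, the vesicle docks and is primed at the active zone, and a complex of SNARE proteins on the vesicle and the plasma membrane fuses them when calcium enters. Neuropeptides travel in dense core vesicles instead, where a proprotein convertase cuts the precursor and a carboxypeptidase trims the ends. Acetylation of H3 at both lysines is deposited by enzymes of the CBP/p300 family and is found mainly at active promoters and enhancers. In a whole worm the neurons are a minority of the cells, and several of these genes are also used in other secretory cells.

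The design asks where acetylation differs between worms under mitochondrial stress and their controls. Library totals in nuclear peaks were 8293828 counts (ev) and 8948860 (cco-1) for H3K18ac, and 11556404 and 11593321 for H3K27ac, and levels are given as counts per 1000000 of these totals (CPM). Positions are in ce11 (WBcel235), the build in the submitters' processing notes. A peak is said to have risen or fallen where the CPM ratio was at least 1.5-fold. Over all nuclear peaks 9.16% rose and 13.2% fell for H3K18ac, and 8.73% rose and 23.1% fell for H3K27ac. The median log2 ratio of all peaks was -0.03 for H3K18ac but -0.19 for H3K27ac, so H3K27ac ratios are also given relative to that median. The H3K27ac median also varied with peak strength. It was -0.47 in decile 2 of mean CPM and 0.12 in decile 10, the strongest. Because the samples are whole worms, fewer cells of a type and less acetylation per cell cannot be told apart.

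Against that background, 3 of the 18 H3K18ac peaks of the synaptic genes rose and 0 fell. The peaks that rose lay over the start of snb-1, just inside ric-4 and over the start of unc-13. For H3K27ac 1 of 13 peaks rose, at snb-1, and 2 fell, at egl-3 and unc-25. No member peak reached 2-fold in either direction, a size passed by 1.13% (higher) and 2.67% (lower) of all H3K18ac peaks and by 2.63% and 7.41% of all H3K27ac peaks. Relative to the median of all H3K27ac peaks 2 of the 13 were past 1.5-fold higher, snb-1 and egl-21, and 0 lower. At that scaling 14.8% of all H3K27ac peaks were higher and 14.4% lower, so the share of higher member peaks was close to that of all peaks. The 95% interval of the fold left out 1 at 9 of the 18 H3K18ac peaks (50.0%, against 60.0% of all peaks) and at 6 of the 13 H3K27ac peaks (46.2%, against 71.9%). The median log2 ratio of the members' peaks was 0.16 for H3K18ac and -0.13 for H3K27ac, the latter turning to 0.06 relative to the median of all H3K27ac peaks.

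**Figure D1:**
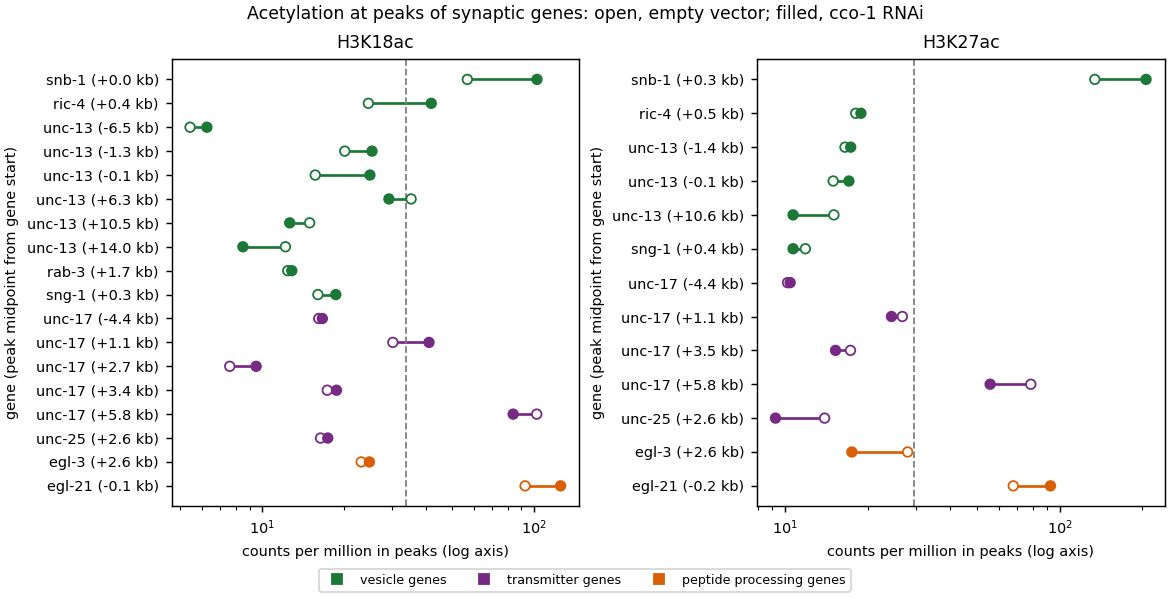
Level of each peak assigned to a synaptic gene, in CPM on a log axis, for H3K18ac (left) and H3K27ac (right); open points are empty vector, filled points cco-1 RNAi, 1 library each, and labels give the distance of the peak's midpoint from the gene start. The dashed line is the median mean level of all peaks (33.8 and 29.5 CPM), and most synaptic peaks lie to its left. The peaks of snb-1 and egl-21 and the last peak of unc-17 lie to its right in both panels. For H3K18ac, the unc-17 peak near the start, the ric-4 peak and the first peak wholly inside unc-13 straddle it.

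Most peaks assigned to the synaptic genes were weakly acetylated for their width, and only assigned peaks enter the orders below. Only 4 of the 18 H3K18ac peaks and 3 of the 13 H3K27ac peaks reached the median level of all peaks. Per kb of peak width the median level in ev was 31.7 CPM per kb for the members' H3K18ac peaks against 59.2 for all peaks, and 41.9 against 57.5 for H3K27ac. Taking the densest peak of each gene in ev, the order of H3K18ac levels per kb was unc-17 (102 CPM per kb), snb-1 (81.2), egl-21 (49.4), ric-4 (42.5), unc-13 (35.8), unc-25 (35.2), egl-3 (25), sng-1 (22.9) and rab-3 (15.1). In this order egl-21 and ric-4, ric-4 and unc-13, unc-13 and unc-25, and egl-3 and sng-1 had overlapping exact 95% Poisson intervals, while the other neighbours did not. For H3K27ac the order per kb was snb-1 (103), unc-17 (80.0), egl-21 (63.4), ric-4 (50.9), unc-13 (41.9), unc-25 (37.0), egl-3 (31.2) and sng-1 (29.9). Here snb-1, unc-17 and egl-21 stood apart from each other and from the rest, and from ric-4 downward every pair of neighbours overlapped. Peaks inside ric-4 and unc-13 that were assigned to other genes would change both orders. In ev the densest reached 127 (H3K18ac) and 125 (H3K27ac) CPM per kb in ric-4, and 99.9 and 117 in unc-13.

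**Figure D2:**
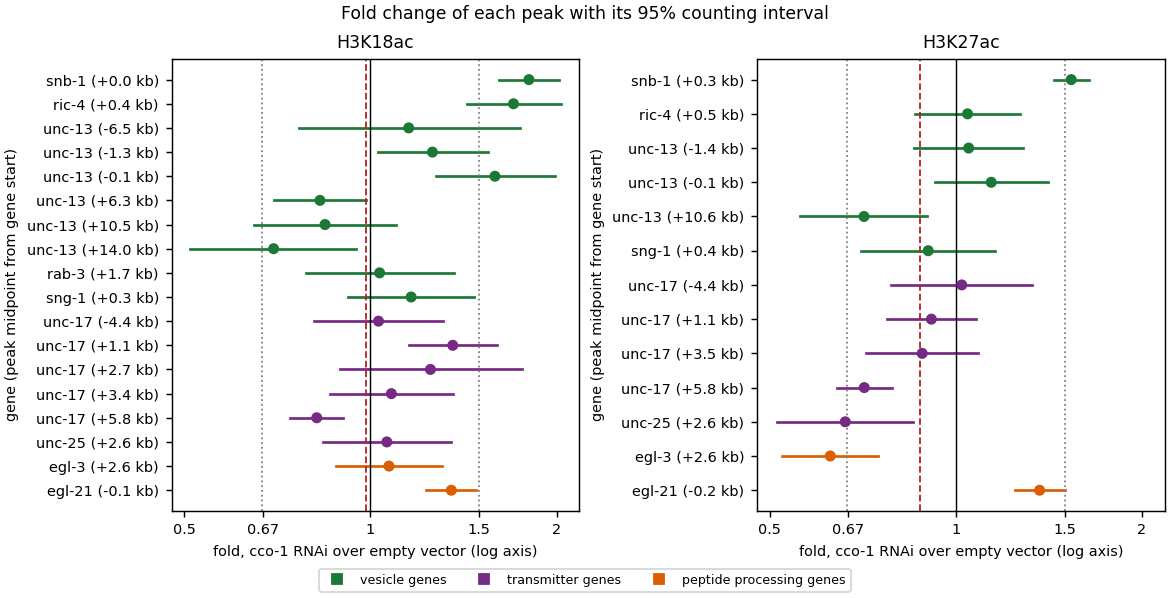
Fold of cco-1 RNAi over empty vector at each peak of a synaptic gene (log axis, points) with its exact 95% interval for counting error (bars), for H3K18ac (left) and H3K27ac (right). Dotted lines mark 1.5-fold in either direction and the red dashed line the median of all peaks; snb-1 lies past 1.5-fold in both panels, ric-4 and the start of unc-13 only for H3K18ac.

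Among the vesicle genes, snb-1 (WBGene00004897, chromosome V, 6655551 to 6656501, minus strand) encodes synaptobrevin, the SNARE protein of the vesicle membrane. Its H3K18ac peak covered the gene start (chrV:6656108-6656808) and held 472 counts in ev and 919 in cco-1 RNAi, or 56.9 and 103 CPM. This was a rise of 1.80-fold (1.61 to 2.02), larger than at 97.4% of all H3K18ac peaks. Its H3K27ac peak spanned nearly the whole short gene (chrV:6655556-6656852) and went from 1551 to 2391 counts, or from 134 to 206 CPM, a rise of 1.54-fold (1.44 to 1.64). Set relative to the median of all H3K27ac peaks, the log2 ratio at snb-1 was 0.81 rather than 0.62, and centred on peaks of like strength it was 0.50, which is under the 1.5-fold limit.

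The next H3K18ac peak upstream, 665 bp from the gene start (chrV:6657166-6659270), was 2105 bp wide and stronger than 97.4% of all H3K18ac peaks, and the authors assigned it to T10H9.10, a non-coding RNA gene. It went from 1431 to 2611 counts, 1.69-fold higher (1.58 to 1.80). To which of the 2 genes the acetylation there belongs was not tested.

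The gene ric-4 (WBGene00004364, chromosome V, 10261130 to 10270314, minus strand) encodes the worm SNAP-25, a SNARE protein of the plasma membrane that pairs with synaptobrevin. Its H3K18ac peak began 79 bp inside the start (chrV:10269657-10270235) and went from 204 to 375 counts, or 24.6 to 41.9 CPM, a rise of 1.70-fold (1.43 to 2.03). The overlapping H3K27ac peak (chrV:10269685-10270039) held 209 counts in ev and 219 in cco-1 RNAi, a ratio of 1.04 (0.860 to 1.27). Relative to the median of all H3K27ac peaks, its log2 ratio was 0.26. The intervals of the 2 marks at this site did not overlap, so the difference between them was larger than counting error.

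Deeper in ric-4, more than 7 kb from its start, lay a stronger peak that the authors assigned to the piRNA locus 21ur-13262. For H3K18ac (chrV:10262281-10263069) it went from 832 to 1023 counts, a ratio of 1.14 (1.04 to 1.25), and for H3K27ac (chrV:10262394-10262904) from 738 to 1080 counts, a ratio of 1.46 (1.33 to 1.6). In this inner peak the H3K27ac ratio was therefore the larger, the reverse of the order at the start of the gene. A weak H3K18ac peak between them, assigned to Y22F5A.10, held 54 and 65 counts.

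The active zone protein UNC-13 primes docked vesicles for fusion, and its gene (WBGene00006752, chromosome I, 7422785 to 7454088, plus strand) is the longest of the set and held 6 H3K18ac and 3 H3K27ac peaks. Over the gene start (chrI:7422450-7422977) H3K18ac went from 130 to 223 counts, or 15.7 to 24.9 CPM, a rise of 1.59-fold (1.27 to 1.99). The H3K18ac peak 908 bp upstream (chrI:7421108-7421877) went from 167 to 227 counts, a ratio of 1.26 (1.03 to 1.55). The 3 assigned peaks inside the gene, 4863, 10322 and 13632 bp from the start, had ratios of 0.829 (0.699 to 0.982), 0.845 (0.649 to 1.1) and 0.697 (0.511 to 0.949). The interval at the start did not overlap that of any of these 3 inner peaks. The weakest peak, 6364 bp upstream, held only 45 and 56 counts, with a ratio of 1.15 (0.765 to 1.75).

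Among the H3K27ac peaks assigned to unc-13, the ratio was highest over the start and lowest inside the gene. The peak over the start (chrI:7422528-7422915) held 173 and 198 counts, a ratio of 1.14 (0.926 to 1.41), and the inner peak 10373 bp from the start 174 and 124 counts, a ratio of 0.710 (0.560 to 0.900). The upstream peak held 191 and 201 counts, a ratio of 1.05 (0.856 to 1.29). Relative to the median of all H3K27ac peaks, the log2 ratios were 0.38 over the start, -0.30 at the inner peak and 0.26 upstream. Centred on peaks of like strength they were 0.56, -0.02 and 0.44. The last part of the gene held 4 further H3K18ac peaks and 2 further H3K27ac peaks that the authors assigned to spe-4, a sperm gene that lies just beyond the end of unc-13. The strongest of these, about 20 kb into unc-13, went from 797 to 920 H3K18ac counts, a ratio of 1.07 (0.972 to 1.18), and from 688 to 942 H3K27ac counts, a ratio of 1.36 (1.24 to 1.51). This H3K27ac ratio was above the one over the start of unc-13, and the peak held more counts in ev than any peak the tables assign to unc-13 in either mark. A weak H3K18ac peak before it had 12.5 and 12.3 CPM, a ratio of 0.980 (0.743 to 1.29). The 2 weak H3K18ac peaks beyond it had ratios of 0.848 (0.656 to 1.1) and 1.08 (0.768 to 1.52), and the weak H3K27ac peak there 0.753 (0.549 to 1.03), so the inner ratios of unc-13 lay on both sides of 1.

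The small GTPase RAB-3, which tethers vesicles, and the vesicle membrane protein synaptogyrin, encoded by sng-1, showed no ratio past 1.5-fold. At rab-3 (WBGene00004267, chromosome II, 5721769 to 5727651) the only assigned peak, 1309 bp inside the gene (chrII:5725518-5726342), held 103 and 115 H3K18ac counts, a ratio of 1.03 (0.786 to 1.36). Of 2 further H3K18ac peaks inside rab-3, assigned to the non-coding gene C18A3.13, the larger held 145 and 163 counts and the smaller 33 and 53. No H3K27ac peak lay in rab-3 or within 1 kb of it. At sng-1 (WBGene00004912, chromosome X, 7327605 to 7329677) the peak over the start (chrX:7327565-7328264) held 133 and 167 H3K18ac counts, a ratio of 1.16 (0.921 to 1.47), and the H3K27ac peak just inside (chrX:7327838-7328233) held 137 and 124, a ratio of 0.902 (0.702 to 1.16) that was 0.04 on the log2 scale relative to the median of all H3K27ac peaks. Immediately upstream of sng-1, 95 bp from its start, an H3K18ac peak assigned to T08A9.17 rose from 150 to 269 counts, 1.66-fold (1.36 to 2.04), while the H3K27ac peak 212 bp upstream held 194 and 185.

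Among the transmitter genes, unc-17 encodes the vesicular acetylcholine transporter (WBGene00006756, chromosome IV, 3618297 to 3624697, minus strand). It lies within cha-1, the gene of the enzyme that makes acetylcholine, and both share their annotated start. The tables therefore give 3 of its 5 H3K18ac peaks and 2 of its 4 H3K27ac peaks to both genes, and each was counted once. The peak nearest to the shared start, 848 bp inside (chrIV:3623302-3623849), went from 251 to 368 H3K18ac counts, or 30.3 to 41.1 CPM, a ratio of 1.36 (1.15 to 1.6). The overlapping H3K27ac peak held 309 and 283 counts, a ratio of 0.913 (0.774 to 1.08) that was 0.06 on the log2 scale relative to the median of all H3K27ac peaks. The intervals of the 2 marks did not overlap, as compared before taking each mark relative to its own median.

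The strongest unc-17 peak lay at the other end of the gene, more than 5 kb from the start (chrIV:3618390-3619397). There H3K18ac went from 850 to 751 counts, a ratio of 0.819 (0.741 to 0.904), and H3K27ac from 907 to 647, a ratio of 0.711 (0.642 to 0.787). Both ratios were below 1 by more than counting error, and neither reached 1.5-fold. Relative to the median of all H3K27ac peaks, the H3K27ac log2 ratio there was -0.30. Between the ends, the H3K18ac ratios were 1.25 (0.892 to 1.76) and 1.08 (0.860 to 1.36), and at the peak more than 4 kb upstream 1.03 (0.811 to 1.31). The middle and upstream H3K27ac peaks had ratios of 0.882 (0.717 to 1.09) and 1.02 (0.787 to 1.33), which were 0.01 and 0.22 on the log2 scale relative to that median.

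Glutamate decarboxylase, which makes GABA, is encoded by unc-25 (WBGene00006762, chromosome III, 12942647 to 12949899, plus strand). Its peak in either mark lay inside the gene, 2371 bp from the start for H3K18ac and 2404 bp for H3K27ac. H3K18ac there (chrIII:12945018-12945483) held 136 and 156 counts, a ratio of 1.06 (0.839 to 1.35), while H3K27ac (chrIII:12945051-12945427) fell from 161 to 107 counts, a ratio of 0.662 (0.514 to 0.851). A second inner H3K27ac peak, assigned to Y39E4A.1, fell from 190 to 120 counts, a ratio of 0.630 (0.497 to 0.795), where H3K18ac held 136 and 126. Relative to the median of all H3K27ac peaks the log2 ratios of these 2 peaks were -0.40 and -0.47, both short of 1.5-fold.

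For unc-47, which encodes the transporter that loads GABA into vesicles, no peak overlapped the gene (chromosome III, 10183762 to 10186260 in the RefSeq table of the same build). The nearest H3K18ac peak lay 488 bp beyond the higher end of the gene (chrIII:10186748-10188068), was assigned to the non-coding gene T20G5.16 and went from 434 to 551 counts, a ratio of 1.18 (1.04 to 1.34). The H3K27ac peak there, 942 bp away, held 262 and 252 counts. The strand of unc-47 is not in the tables used, so it was not settled on which side of the gene these peaks lie.

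Of the peptide processing genes, egl-21 (WBGene00001189, chromosome IV, 10478442 to 10481844, minus strand) encodes the carboxypeptidase that trims neuropeptides, and egl-3 (WBGene00001172, chromosome V, 10169177 to 10173753, minus strand) the proprotein convertase that cuts their precursors. Over the start of egl-21, H3K18ac (chrIV:10481028-10482905) went from 770 to 1123 counts, or 92.8 to 125 CPM, a ratio of 1.35 (1.23 to 1.48). H3K27ac (chrIV:10481463-10482531) went from 783 to 1073 counts, a ratio of 1.37 (1.24 to 1.5). The ratios of the 2 marks were nearly equal here, both above 1 by more than counting error, and relative to the median of all H3K27ac peaks the log2 ratio of 0.64 was past 1.5-fold.

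At egl-3 the peak lay more than 2 kb inside the gene. H3K18ac (chrV:10170661-10171585) held 192 and 222 counts, a ratio of 1.07 (0.879 to 1.31), whereas H3K27ac (chrV:10170670-10171564) fell from 323 to 203 counts, or from 27.9 to 17.5 CPM, a ratio of 0.626 (0.523 to 0.749). The intervals of the marks did not overlap, and relative to the median of all H3K27ac peaks the log2 ratio was -0.48, short of 1.5-fold. Upstream of egl-3, 283 bp from its start, an H3K18ac peak assigned to C51E3.12 went from 451 to 408 counts, a ratio of 0.838 (0.732 to 0.961), and the H3K27ac peak in it from 356 to 288, a ratio of 0.806 (0.688 to 0.945). Near the far end of egl-3, an H3K18ac peak assigned to C51E3.6 had 15.7 and 12.1 CPM, a ratio of 0.770 (0.591 to 1.00). At the far end of egl-21, an H3K27ac peak assigned to F01D4.3 fell from 197 to 122 counts, a ratio of 0.617 (0.488 to 0.778), which relative to the median of all H3K27ac peaks was -0.50 on the log2 scale and short of 1.5-fold. The H3K18ac peak there held 107 and 132 counts, a ratio of 1.14 (0.879 to 1.49).

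Taken by position along the gene, all 7 assigned H3K18ac peaks over or within 1 kb of a gene start had ratios above 1, with a median log2 ratio of 0.44 and 3 rises, and of the 11 farther away 7 had ratios above 1 and 4 below, with a median of 0.05 and 0 rises. Over all H3K18ac peaks the medians were -0.02 near a start and -0.04 farther away, with 8.59% and 10.1% rises, and 48.2% and 47.3% of them had ratios above 1. For H3K27ac, 4 of the 6 members' peaks near a start had ratios above 1 (median 0.13), while 5 of the 7 farther away were below 1 (median -0.49, 2 falls). Over all H3K27ac peaks the corresponding medians were -0.18 and -0.22, with 37.6% above 1 near a start and, farther away, 66.8% below 1 and 23.4% falls, so the counts of the members' farther peaks were close to those of all such peaks. Relative to the median of all H3K27ac peaks, all 6 near the start were above 0, against 51.2% of all such peaks, as were 3 of the 7 others, against 48.0%. Peaks assigned to other genes went both ways. The H3K18ac peaks just upstream of snb-1 (1.69) and sng-1 (1.66) were above 1, but the nearest upstream peak of egl-3 was below 1 in both marks. Deep inside ric-4 and unc-13, strong H3K27ac peaks had ratios of 1.46 and 1.36, above those at the gene starts (1.04 and 1.14). Relative to the median of all H3K27ac peaks, the log2 ratios of these inner peaks were 0.74 and 0.64, both past 1.5-fold. At the gene starts they were 0.26 and 0.38. The other inner H3K27ac peaks assigned elsewhere, in unc-13, unc-25 and egl-21, were below 1. Several of these peaks share a gene (unc-13 and unc-17 hold 11 of the 18 H3K18ac and 7 of the 13 H3K27ac peaks), so they are not independent points.

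**Figure D3:**
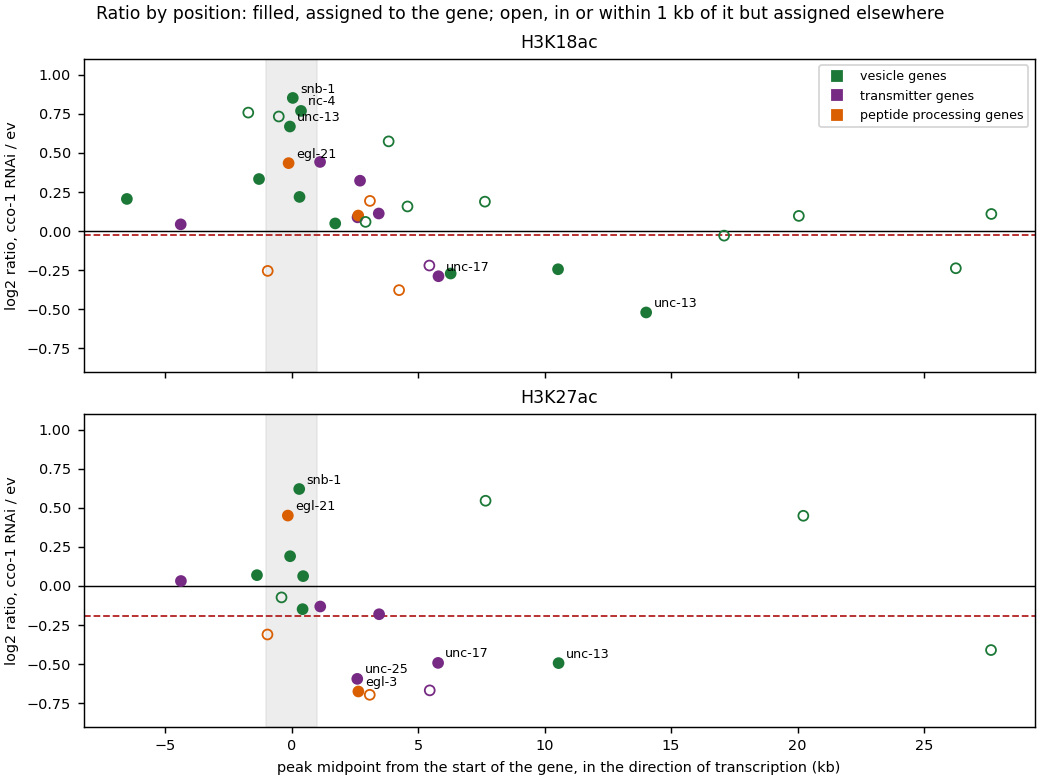
Log2 ratio (cco-1 RNAi / ev) against the distance of the peak's midpoint from the start of the gene in kb, for H3K18ac (top) and H3K27ac (bottom); filled points are peaks assigned to a synaptic gene, open points peaks in it or within 1 kb of it that are assigned to another gene (those beside unc-47 are not drawn). The grey band is 1 kb on either side of the start and the red dashed line the median of all peaks; the highest filled points in both panels lie in the band, and the lowest lie to its right.

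Compared by role, the 10 H3K18ac peaks of the vesicle genes had a median log2 ratio of 0.21 with 3 rises, and the 8 peaks of the transmitter and peptide genes a median of 0.11 with 0 rises; 0 fell in either group. For H3K27ac the 6 vesicle peaks had a median of 0.07 (1 rise, 0 falls) and the 7 others -0.18 (0 rises, 2 falls), and relative to the median of all H3K27ac peaks these medians were 0.26 and 0.01. The ranges of the log2 ratios overlapped widely, from -0.52 to 0.85 and from -0.29 to 0.44 for H3K18ac, and from -0.49 to 0.62 and from -0.67 to 0.45 for H3K27ac. Without snb-1 the vesicle medians were 0.21 and 0.06, though no other vesicle peak reached median strength in either mark. Near-start peaks were 5 of the 10 H3K18ac peaks of the vesicle genes and 2 of the 8 others, so role and position were not separate.

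At the 13 places where peaks of the 2 marks overlapped on a member, the H3K18ac ratio was larger than the H3K27ac ratio at 12, with a median difference in log2 ratio of 0.29. Over all 15026 overlapping peak pairs it was larger at 61.0%, with a median difference of 0.13. Before taking each mark relative to its own median, the intervals were apart at 3 places (ric-4, the start side of unc-17, and egl-3). Only at egl-21 was the H3K27ac ratio the larger. The signs were opposite at 5 places, namely sng-1, 2 peaks of unc-17, unc-25 and egl-3. At each of these 5 the counting interval of at least 1 mark included 1. At unc-25 and egl-3 it was that of H3K18ac (0.839 to 1.35 and 0.879 to 1.31). With each mark taken relative to its own median the H3K18ac ratio was larger at 11 of the 13 (84.6%, against 46.3% of all pairs), but opposite signs remained at 2, unc-25 and egl-3. After centring on peaks of like strength it was larger at 7 of 13. The shares of all pairs with intervals apart, with opposite signs or with a larger centred H3K18ac ratio were not computed. Whether the members differ from other pairs in these counts was not tested.

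**Figure D4:**
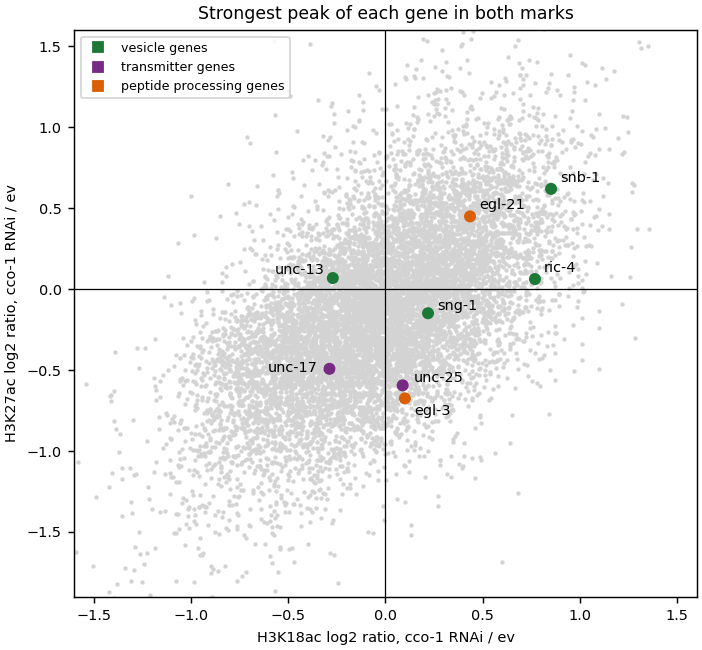
Log2 ratio at the strongest peak of each gene for H3K18ac (x axis) and H3K27ac (y axis); grey points are all 10058 genes with a peak in both marks (54 lie outside the axes), coloured points the 8 synaptic genes with both, whose strongest peaks can lie at different places in the 2 marks. The gene snb-1 lies at upper right, egl-21 nearer the centre in the same quadrant, and unc-25 and egl-3 at low H3K27ac with H3K18ac near 0.

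Among the 5686 genes whose strongest peaks reached median strength in both marks, 57 (1.00%) had both ratios at least as large as snb-1. The 5 genes with the most similar pair of log2 ratios (Euclidean distance over the 2 marks) were Y48G9A.9, T07F12.4, F52H2.3, Y56A3A.31 and ZK131.14, at distances of 0.03 to 0.04. At Y56A3A.31 the peaks covered the gene start in both marks, and H3K18ac went from 1619 to 3144 counts (1.80-fold) and H3K27ac from 2091 to 3298 (1.57-fold).

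Further genes of the synapse were taken from 5 lists and read at the strongest peak of each gene, where 8.04% of all genes rose and 13.1% fell for H3K18ac and 8.72% rose and 21.9% fell for H3K27ac. Of the SNARE and fusion regulators, 1 of 11 rose and 0 fell for H3K18ac, and 3 of 9 rose and 0 fell for H3K27ac, with medians of 0.14 and 0.34. Relative to the median of all H3K27ac peaks, where 15.2% of all genes were past 1.5-fold higher and 13.5% lower, the H3K27ac counts of this list were also 3 and 0 (median 0.53). The H3K18ac rise was at unc-31 (1.67-fold, 1.41 to 1.98), whose protein CAPS acts in dense core vesicle release. The H3K27ac rises were at aex-6, the worm Rab27 gene (1.64-fold, 1.51 to 1.78), at tom-1, the tomosyn gene (1.78-fold), and at unc-18, a partner of syntaxin (1.53-fold); the last 2 had weak peaks and were named after their values were seen. Among peaks of at least median strength, aex-6 (1.29) and unc-18 (1.15) came next for H3K18ac, and snt-4 (1.27) and unc-31 (1.26) for H3K27ac.

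Vesicle transport and recycling genes had 3 of 10 H3K18ac rises and 0 falls (median 0.28), and 1 of 11 H3K27ac rises and 0 falls (median 0.29), which became 4 and 0 relative to the median of all H3K27ac peaks (median 0.48). H3K18ac rose at gdi-1, which recycles Rab proteins, from 2381 to 4174 counts (1.62-fold, 1.54 to 1.71), and at unc-11, the clathrin adaptor AP180, from 890 to 1455 counts (1.52-fold, 1.39 to 1.65). It also rose at a weaker peak of snn-1, the synapsin gene (1.66-fold). The vesicle kinesin gene unc-104 had a ratio of 1.33 (1.18 to 1.51). For H3K27ac the rise was at a weak peak over the start of unc-26, the synaptojanin gene (2.03-fold, 111 to 226 counts), and the leading strong peaks were those of gdi-1 (1.38), chc-1, the clathrin heavy chain gene (1.32), and ehs-1 (1.32). Both snn-1 and unc-26 were named after their values were seen.

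Active zone and assembly genes had 0 of 4 past 1.5-fold for H3K18ac (median 0.12), where unc-10 had 1.15, unc-2 0.888 and rimb-1 1.11, and 2 of 6 rises for H3K27ac (median -0.02, or 0.17 relative to the median of all peaks, with 2 higher and 0 lower there too). These were at rimb-1, the RIM-binding protein gene (1.5-fold, 1.37 to 1.65), and at a weak peak of lin-2, named after its values were seen (1.78-fold), while elks-1 had 0.706 and syd-2 0.895. For peptide processing and dense core vesicles, 0 of 12 passed 1.5-fold for H3K18ac (median 0.09), with aex-5 at 0.693, kpc-1 at 0.784 and unc-108 at 1.27, and 4 of 10 rose for H3K27ac (median 0.34), or 5 of 10 relative to the median of all H3K27ac peaks. The strong H3K27ac rise was at pgal-1, of peptide amidation (1.53-fold, 1.4 to 1.67); the other 3, named after their values were seen, were bli-4, a convertase also used in the cuticle (2.11-fold), pamn-1 (1.75-fold) and rund-1 (1.62-fold). Next to these, unc-108 had 1.34 and aex-5 0.840.

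Transmitter synthesis and transport genes had 0 of 9 past 1.5-fold for H3K18ac (median 0.09) and 0 rises with 3 falls of 9 for H3K27ac (median -0.29). The falls were at weak peaks, named after their values were seen, of cho-1, the choline transporter gene (2.05-fold lower), cat-2, which makes the dopamine precursor (1.79-fold lower), and vglu-3 (1.61-fold lower). Relative to the median of all H3K27ac peaks 2 of these were still past 1.5-fold. Centred on peaks of like strength, the log2 ratios were -0.38 at cho-1, -0.60 at cat-2 and -0.37 at vglu-3. Only cat-2 was then past 1.5-fold. Among strong peaks, cha-1 had an H3K18ac ratio of 1.36 at the peak it shares with unc-17, vglu-2 had 1.23 and 1.05, and ace-2, an acetylcholinesterase gene, had 1.00 and 0.937 for the 2 marks. Each list missed members with no assigned peak, 5 to 11 of them for H3K18ac and 6 to 11 for H3K27ac. Of these, syd-2, lin-2 and apa-2 had an H3K27ac peak and lie beyond the last deposited H3K18ac peak of chromosome X. Whether listed genes with no peak in either mark lie beyond the last deposited peaks was not checked. Their lack of a peak therefore need not mean a lack of acetylation.

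Of 6 listed neuron markers, 4 had a peak in each mark and 2, unc-86 and mec-3, had none. Summed over the markers, H3K18ac went from 168 to 210 CPM and H3K27ac from 218 to 199 CPM. The panneuronal gene unc-119 rose for H3K18ac (1.51-fold, 1.33 to 1.72) and had 0.994 for H3K27ac, and rgef-1 had 0.986 and 0.676, ric-19 1.12 and 0.766, and unc-33 1.32 and 1.03. Summed markers of other tissues went from 272 to 330 CPM of H3K18ac and from 241 to 387 of H3K27ac for intestine, and from 338 to 233 and from 304 to 199 for hypodermis. For body wall muscle they went from 663 to 521 and from 462 to 415 CPM, and for germline from 178 to 152 and from 545 to 363. Pharynx markers had no H3K18ac peak and summed to 28.1 and 13.7 CPM of H3K27ac at 2 of 4 genes. The deposited H3K18ac peaks of chromosome X stop short of elt-2, unc-27 and myo-2. These markers therefore entered the H3K27ac sums only. So did oma-1 (chromosome IV) and myo-1 (chromosome I), which had no H3K18ac peak. The sums of the 2 marks thus cover unlike sets of genes. The part of these tissue values in the ratios at the synaptic genes was not tested.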

How the data were processed

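Chromatin immunoprecipitation libraries of H3K18ac and H3K27ac were read from 2 peak tables that hold whole-number counts per peak for ev and cco-1 RNAi, as deposited by the authors. The count values are taken as unnormalised read counts, since the library totals differ, but no header states their unit. Upstream, per the submitters' processing notes, MACS2 (version 2.1.2), SAMtools (version 1.4.1), Bowtie2 (version 2.3.5) and FastQC were used with build ce11, also listed as WBcel235. No role for each tool, no peak threshold and no statement on pooling was given in the sources used here. Each peak's nearest gene, gene position and strand are the authors' annotation. The 2 input libraries were not analysed here.

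Lines repeated for several genes (119 and 111) were counted once, and mitochondrial peaks (5 and 3) were left out. Counts were scaled to CPM of all nuclear peaks, and the ratio of CPM was given an exact Clopper-Pearson 95% interval from the pair of counts. Levels per kb have exact Poisson intervals. With 1 library per group no test across conditions was possible. A peak near a start has its nearest edge within 1 kb. Peaks of the marks were paired by an overlap of at least 1 bp. A peak's ratio was centred by the median log2 ratio of its decile of mean CPM. The H3K18ac table ends at 7889771 on chromosome X and the H3K27ac table at 12935256, so genes beyond these positions count as having no peak. Bodies of members without a peak came from the RefSeq table of gene positions.

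The members and lists were chosen with earlier results of these data known. All members were named by every peak, as was any peak inside or within 1 kb of a member but assigned elsewhere. In each list and mark up to 3 genes were named, those with the largest ratio in either direction at a strongest peak of at least median strength, and other genes are marked as named after their values were seen. Alternatives were other scalings (none, median, edgeR 4.0.16 TMM factors in R 4.3.3, centring), a pseudocount at the 5th percentile of CPM, a 2-fold limit, and subsets of the peaks. Ratios and intervals were checked on simulated data that held counting error alone, so the check does not cover variation between libraries. Python 3.11.15, pandas 2.3.3, numpy 2.4.6 and scipy 1.17.1 were used.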

Additional observations from a re-analysis of the deposited data

How the results depend on the processing

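Of 96 alternative values for 12 results, 69 stayed near the reported value and 27 moved. Some of the 69 could not have moved, so this tally does not measure robustness. With 1 snb-1 peak per mark, taking the peak nearest to the start repeats the reported ratio. The H3K18ac count of 0 lower peaks must stay 0 at a 2-fold limit or in a subset of the peaks. The limit for near was also wide. The H3K18ac median of all members counted as near although it went from 0.16 to 0.44 within 1 kb of a start. Among the ratios, only that of snb-1 in each mark was past 1.5-fold, and neither changed its direction. A value that stayed near could still change sign, as the H3K27ac median of all members did (-0.13 to 0.06 with median scaling). For H3K18ac the count of 3 higher member peaks became 0 at a 2-fold limit and 1 with weak peaks (below the median level) left out. With weak peaks left out, snb-1 was the only H3K18ac vesicle peak (log2 ratio 0.85) and the 3 transmitter and peptide peaks had a median of 0.43. Within 1 kb of a start the H3K18ac medians were 0.67 for vesicle and 0.44 for transmitter and peptide genes.

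The H3K27ac results moved more. At snb-1 the H3K27ac log2 ratio of 0.62 became 0.81 with median scaling, 0.79 with TMM scaling and 0.50 after centring. The 1 higher H3K27ac peak became 2 with median or TMM scaling and 0 after centring or at a 2-fold limit. The 2 lower peaks became 0 under median scaling, TMM scaling, centring, the pseudocount, the 2-fold limit, the strength filter (peaks at or over median strength) and the limit to 1 kb from a start. The H3K27ac medians of all members (-0.13) and of transmitter and peptide genes (-0.18) turned positive under several settings. Centring gave H3K27ac medians of 0.32 for all members, 0.41 for vesicle genes and 0.10 for transmitter and peptide genes. With weak peaks left out, 3 member peaks remained with a median of 0.45, and snb-1 was the only vesicle peak (0.62). For transmitter and peptide genes the H3K27ac median was -0.54 with the strongest peak per gene and 0.16 within 1 kb of a start. The cause of these shifts was not tested.

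No paired analysis was possible because each group holds 1 library. Leaving out a replicate was not done for the same reason. Depth limits the precision of each ratio. At 9 of 18 H3K18ac and 7 of 13 H3K27ac peaks the counting interval includes 1. This count does not measure depth alone, since ratios near 1, as at rab-3 (1.03), also enter it.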
